A study of Mus musculus with 8 samples.

Results

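The SMC-Peri nuclei are the nuclei that the deposited cell table assigns to smooth muscle cells and pericytes, the cells that wrap the vessels of the brain. They were taken by that label alone and numbered 180 of 102330 nuclei, or 0.176%. The other vascular classes among the 20 cell types held 399 endothelial (Endo) and 360 vascular leptomeningeal (VLMC) nuclei.

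Pericytes sit on capillaries, inside a basement membrane that they share with the endothelium, while smooth muscle cells form contractile rings around arterioles. Both are recruited to vessels by endothelial PDGFB acting on the receptor PDGFRB, and both depend on NOTCH3 signalling from endothelial ligands. Vessel tone follows calcium entry and phosphorylation of myosin light chain, which cyclic GMP and ATP-sensitive potassium channels oppose.

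Tissue was primary visual cortex (V1), collected at P21. All mice carried loxP-flanked glucocorticoid receptor alleles (GR fl/fl) and received at birth an AAV2/5 vector whose GfaABC1D promoter drives expression in astrocytes. The vector encoded Cre (GR-KO) or the inactive ΔCre (GR-Con), in both cases with EGFP, and rearing was either in normal light (NR) or in darkness (DR). Each of the 4 groups had 2 libraries, 1 from a male and 1 from a female, made with a droplet kit that reads the 3′ end of transcripts. According to the study's methods, nuclei for this assay were sorted as positive for the DNA dye DRAQ5 and negative for GFP. GR was not targeted in vascular cells, so these comparisons ask whether the class differed when astrocytes lacked GR or when the animal was reared without light.

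The label was checked against the counts first. The count of molecules (UMIs, unique molecular identifiers) over the 180 nuclei was 1331896, and values are given as CPM, UMIs scaled to the total of the SMC-Peri nuclei of a library or of all of them pooled. *Pdgfrb* stood at 580 CPM in SMC-Peri nuclei against 128 in VLMC nuclei, the next highest class. *Abcc9*, the regulatory subunit of the vascular ATP-sensitive potassium channel, stood at 454 against 58.6 CPM in endothelial nuclei. *Rgs5*, a regulator of G-protein signalling that marks pericytes, stood at 462 CPM, close to the 418 CPM of endothelial nuclei. An *Rgs5* UMI was seen in 86.1% of SMC-Peri nuclei and in 45.1% of endothelial ones, but in 1.11% of astrocytes, which had a median of 6107 UMIs per nucleus against 2923.5. *Acta2*, the actin of contractile smooth muscle, had 14 UMIs, from 4 of the 180 nuclei. Of the 4 markers of the class, *Pdgfrb* and *Abcc9* thus set it apart, and *Rgs5* pooled over all nuclei was close to the endothelial level. *Acta2* was nearly absent, although its pooled level was the highest of the 20 types. In the 140 SMC-Peri nuclei of lower depth, described further on, *Rgs5* stood at 1117 CPM, and the endothelial level at such depth was not computed.

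**Figure D1:**
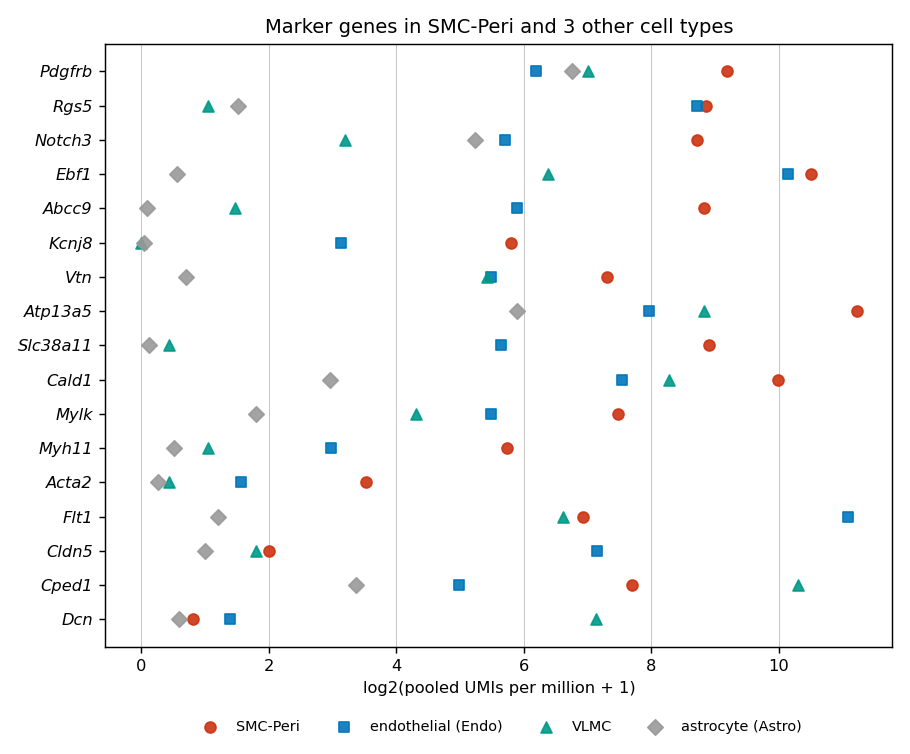
Pooled level of 17 marker genes in SMC-Peri, endothelial, VLMC and astrocyte nuclei, as log2 of CPM plus 1 on the x axis. SMC-Peri nuclei (circles) lie to the right for *Pdgfrb*, *Notch3*, *Abcc9* and *Atp13a5*, next to endothelial nuclei for *Rgs5* and *Ebf1*, and near the left end for *Acta2*, while *Flt1* and *Cldn5* peak in endothelial and *Cped1* and *Dcn* in VLMC nuclei.

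The pericyte genes carried the class. Of 12 pericyte genes listed, 10 had their highest level of the 20 types in SMC-Peri nuclei. They were led by the transporter ATPase *Atp13a5*, at 2387 CPM against 451 in VLMC nuclei, and included *Kcnj8*, the pore subunit paired with *Abcc9*, at 54.8 against 7.81, and the matrix protein *Vtn*, at 158 against 43.9. The exceptions were *Anpep* and the amino acid transporter *Slc6a20a*, which stood at 641 CPM but reached 1718 CPM in VLMC nuclei. At least 1 UMI of the 8 pericyte genes fixed as class markers was found in each of the 180 nuclei.

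Genes common to both mural types followed. Of 14 such genes, 11 were highest in SMC-Peri nuclei, among them *Notch3* at 420 CPM against 51.1, the transcription factor *Ebf1* at 1454 against 1134, and *Carmn*, a long noncoding RNA of the smooth muscle lineage, at 308 against 36.6. *Cspg4* was higher in oligodendrocyte precursors, *Mcam* in oligodendrocytes and *Tbx18* in VLMC nuclei.

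The contractile programme of arterioles was thin. Of 15 smooth muscle genes, 6 were highest in SMC-Peri nuclei, namely *Acta2*, *Myh11*, *Myl9*, *Mylk*, *Des* and *Cald1*. But 2 of these, the actin-binding *Cald1* at 1019 CPM and the myosin light chain kinase *Mylk* at 176 CPM, are not restricted to smooth muscle. *Myh11*, the smooth muscle myosin heavy chain, had 70 UMIs in 35 nuclei, *Tagln* had 6 UMIs, and *Cnn1* had 0, which allows up to 2.25 CPM at 3 counts. An UMI of any of the 6 smooth muscle marker genes was found in 47 nuclei, and smooth muscle UMIs outnumbered pericyte UMIs in 4, or 2.22% (95% Wilson interval 0.867 to 5.57%, counting error only).

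These 4 nuclei differed among themselves. A nucleus of the NR GR-Con female library held 18 smooth muscle UMIs against 3 pericyte UMIs, 11 of them from *Acta2*. The other three, in the DR GR-Con male and DR GR-KO female libraries, held 12 against 1, 8 against 1 and 5 against 4, and their leading gene was *Myh11*, with 9, 5 and 4 UMIs. *Abcc9* and *Kcnj8*, which are among the pericyte marker genes used to pick these nuclei, were at 0 UMIs in each of the 4. The class as labelled was therefore mostly made of nuclei with pericyte transcripts, and these 4 were its nuclei with more smooth muscle than pericyte UMIs on the marker genes. On the full lists of both types there were 7.

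Markers of the neighbouring vascular classes were low. None of 10 endothelial and 11 VLMC marker genes peaked in SMC-Peri nuclei. *Cldn5*, the endothelial tight junction gene, had 4 UMIs, *Pecam1* had 1 and *Cdh5* had 0, whereas *Flt1* stood at 121 CPM against 2167 in endothelial nuclei. Among fibroblast genes *Dcn* had 1 UMI and *Bnc2* had 0, and *Cped1* stood at 206 CPM against 1267 in VLMC nuclei.

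Over all genes, 3563 reached 50 CPM in SMC-Peri nuclei and 198 of these were highest there. Without the 40 deepest SMC-Peri nuclei, which supplied 67.1% of the UMIs, the latter count was 1023. The class was made by clustering these same nuclei, so this is a description and no test. Ranked by the ratio to the next highest type, the leading genes were *Pla1a*, *Rem1*, *Slc38a11*, *Ano1*, *Tbx3os1*, *Morrbid*, *Cysltr2*, *Carmn*, *Notch3*, *Abcc9*, *Ednra*, *Tbx2*, *Art3*, *Gm36823* and *Myh11*. The phospholipase gene *Pla1a* led with 92.3 CPM against 8.14 in endothelial nuclei, a ratio of 10.2 with 1 CPM added to both. The amino acid transporter gene *Slc38a11* stood at 476 against 48.8, in 91.7% of nuclei. *Ano1*, the calcium-activated chloride channel that depolarizes mural cells, stood at 255 against 27.0, and *Ednra*, the endothelin receptor that contracts them, at 233 against 30.0. For 14 of the 15 the next highest class was endothelial.

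Promoter sequences are shown for 3 genes, *Abcc9* and *Slc38a11* as leading genes of the class and *Acta2* as the class marker that was nearly absent. Each is the 250 bases before the RefSeq gene start on GRCm38.p6, read 5′ to 3′ on the gene's strand, at chr6:142702275-142702524 for *Abcc9*, chr2:65364027-65364276 for *Slc38a11* and chr19:34255374-34255623 for *Acta2*, all on the minus strand. Capitals mark matches on either strand to TGGGAA, the core letters bound by the Notch effector RBPJ, or to the palindromic consensus letters of a GR element, searched with unspecified bases between and inside its arms.
Abcc9: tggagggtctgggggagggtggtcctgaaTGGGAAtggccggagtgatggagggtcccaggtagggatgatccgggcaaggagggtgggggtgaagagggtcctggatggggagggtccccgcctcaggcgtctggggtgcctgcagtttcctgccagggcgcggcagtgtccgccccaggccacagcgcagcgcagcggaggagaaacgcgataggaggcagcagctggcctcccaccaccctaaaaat
Slc38a11: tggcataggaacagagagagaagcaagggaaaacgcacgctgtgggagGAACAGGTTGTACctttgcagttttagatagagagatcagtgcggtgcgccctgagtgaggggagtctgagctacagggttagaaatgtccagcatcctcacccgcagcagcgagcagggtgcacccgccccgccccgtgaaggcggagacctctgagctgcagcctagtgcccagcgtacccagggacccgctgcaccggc
Acta2: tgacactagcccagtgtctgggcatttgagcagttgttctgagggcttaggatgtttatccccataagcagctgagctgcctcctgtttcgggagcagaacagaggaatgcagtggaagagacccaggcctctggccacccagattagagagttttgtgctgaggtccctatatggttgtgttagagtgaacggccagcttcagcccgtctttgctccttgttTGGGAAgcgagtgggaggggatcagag
The TGGGAA match lay 221 bases before the start of *Abcc9* and 27 bases before that of *Acta2*, and the GR letters matched 202 bases before that of *Slc38a11*. TGGGAA occurred in 7094 of 32851 such promoters, or 21.6%, and in 10 of the 30 matched among 41 mural, pericyte and smooth muscle genes. The GR letters occurred in 127 promoters, or 0.387%, and in 0 of those 30, and *Slc38a11* was picked out for its match after the search. These are matches of letters and not binding sites.

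The excitation and relaxation genes of mural cells were then described by role. Of 23 ion channel and calcium handling genes, 6 were highest in SMC-Peri nuclei, including *Cacna1c*, the L-type calcium channel through which contraction is triggered, at 1560 CPM against 1235 in L2/3 neurons. Of 19 genes of cyclic nucleotide and contraction signalling, 7 were highest there. These comprised all 3 listed subunits of soluble guanylate cyclase, the nitric oxide receptor, namely *Gucy1a2* at 813 against 493, *Gucy1b1* at 320 against 149 and *Gucy1a1* at 196 against 125 CPM. The cyclic GMP-dependent kinase *Prkg1* stood at 2334 against 1526 in oligodendrocyte precursors, and the cyclic AMP phosphodiesterase *Pde8b* at 1547 against 555 CPM in L4 neurons. All of these levels are pooled over nuclei of every depth. Summed over the list, the 23 channel genes stood at 9603 CPM in the 140 shallower nuclei and 7471 CPM in the 40 deepest. The 19 signalling genes stood at 16423 and 7957 CPM, and the 14 mural genes at 11941 and 1709 CPM. The part of the deep nuclei in these levels was not tested.

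Of 24 receptors for vasoactive signals, 7 were highest in SMC-Peri nuclei, at low levels apart from *Ednra*. *P2ry14*, a receptor for UDP-sugars, stood at 122 CPM against 42.3 and *Adora2a*, the adenosine receptor that relaxes vessels, at 33.0 against 6.19. The angiotensin receptor *Agtr1a* had 1 UMI.

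At pooled levels, genes of attachment to the vessel wall were shared with the neighbouring classes. Of 18 basement membrane genes, 4 were highest in SMC-Peri nuclei, namely the laminin chains *Lamc1* at 292 against 224 and *Lamc3* at 92.3 against 79.9 CPM, *Nid1* at 118 against 75.6 and *Col4a3* at 17.3 against 13.3. The collagen chains *Col4a1* and *Col4a2* were second, behind endothelial nuclei. Summed over the 18 genes, the pooled level was 1743 CPM in SMC-Peri, 2108 in endothelial and 1702 in VLMC nuclei. It was 3719 CPM in the 140 shallower SMC-Peri nuclei, and the levels of the other classes at such depth were not computed. Of 12 integrins, the collagen-binding *Itga1*, at 685 against 415 CPM, and *Itga4*, at 291 against 150, were highest.

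In the Notch pathway 4 of 14 genes were highest, all of them the receptor *Notch3* and effectors, with *Hey2* at 56.3, *Heyl* at 38.3 and *Hes1* at 24.0 CPM. The ligands *Jag1* and *Dll4* were not, nor was any of 19 genes of TGF-beta and BMP signalling. Of 15 transporters, *Atp13a5*, *Slc38a11*, *Slc16a12* and *Slc30a10* were highest. *Pdgfrb* and the sphingosine phosphate receptor *S1pr3*, at 45.0 against 8.81 CPM, were highest among 15 genes of PDGF and angiopoietin signalling.

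Glucocorticoid genes were not particular to the class. *Nr3c1*, which encodes GR, stood at 223 CPM in SMC-Peri nuclei, seventh of the 20 types, with 342 in microglia, 304 in endothelial and 254 in astrocyte nuclei. None of 23 known GR target genes and none of 6 steroid receptor genes peaked in SMC-Peri nuclei. *Fkbp5*, a co-chaperone that GR induces, stood at 60.1 CPM, and *Mt1* and *Tsc22d3* had 9 and 10 UMIs.

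Not all libraries held the class at a usable number. SMC-Peri nuclei numbered 7 in the male and 26 in the female library of NR GR-Con, 14 and 29 in NR GR-KO, 53 and 1 in DR GR-Con, and 19 and 31 in DR GR-KO. The 6 libraries with 10 or more were used for comparisons of expression, which left NR GR-Con with its female library and DR GR-Con with its male one. For rearing within GR-Con, sex and rearing therefore cannot be told apart in these libraries. For genotype within a rearing, GR-KO libraries of both sexes were set against a GR-Con library of 1 sex. Of 1220 cell barcodes shared between nuclei of different libraries, 2 belonged to SMC-Peri nuclei, and no barcode was shared within the class.

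3 libraries stood apart in depth. In NR GR-Con male, NR GR-KO male and DR GR-Con female the shallowest nucleus of any type had 4635, 7024 and 5704 UMIs, against 1402 to 1460 in the other 5 libraries. These 3 libraries also held 2, 4 and 4 microglia, against 573 to 948 elsewhere. The median of their SMC-Peri nuclei was 19310, 25312.5 and 27055 UMIs, against 2475 to 5603. In these libraries fewer mural cells and a higher depth limit cannot be told apart, just as fewer cells and less RNA per cell cannot.

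The SMC-Peri nuclei themselves fell into a shallow and a deep set. No nucleus had between 7092 and 9707 UMIs, and a limit of 8000 UMIs, chosen after the gap was seen, left 140 nuclei below and 40 above, with medians of 2613 and 22048 UMIs. The 40 deep nuclei, 22.2% of the class, supplied 67.1% of its UMIs. Among endothelial and VLMC nuclei 26.6% and 22.5% lay above the same limit.

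Deep and shallow nuclei held like numbers of mural transcripts and unlike numbers of neuronal ones. The median nucleus had 26.5 UMIs of the pericyte list below the gap and 30 above it, 35 and 33.5 of the mural list, and 8 and 8 of the smooth muscle list. The 9 neuron markers gave a median of 4 UMIs below and 320.5 above, or 0.198% and 1.63% of all UMIs, and the 9 astrocyte markers gave 1 and 23.5. *Abcc9* was seen in 80.0% of the nuclei of both sets, at 1096 CPM below and 139 CPM above the gap. A lower CPM of a mural gene in a deep nucleus thus went with a like number of its UMIs and a larger total. The source of the neuronal and astrocytic transcripts was not tested. The study's methods name DoubletFinder for the removal of predicted doublets before deposit, and no further removal was made here.

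**Figure D2:**
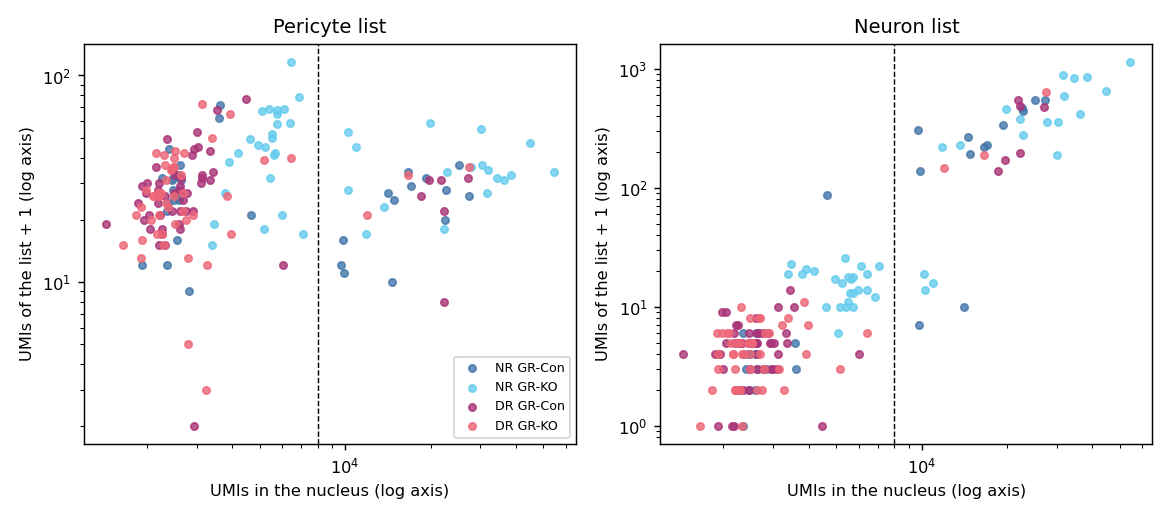
UMIs of the pericyte list (left) and of the neuron list (right), each plus 1, against total UMIs of the 180 SMC-Peri nuclei, coloured by group, with all axes on a log scale. Right of the dashed line at 8000 UMIs the 40 deep nuclei keep a median of 30 pericyte UMIs, against 26.5 to its left, while the median of neuron UMIs is 4 to its left and 320.5 to its right.

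The deep nuclei were spread unevenly over the libraries. Their number was 7 and 6 in NR GR-Con male and female, 13 and 5 in NR GR-KO, 5 and 1 in DR GR-Con, and 0 and 3 in DR GR-KO. They supplied 97.8% of the SMC-Peri UMIs of the NR GR-KO male library, 63.8% in NR GR-Con female, 56.7% in NR GR-KO female, 45.1% in DR GR-Con male, 43.2% in DR GR-KO female and none in DR GR-KO male. The neuron markers followed the same order at the ends, from 15231 CPM in NR GR-KO male to 1194 CPM in DR GR-KO male. Below the gap they stood at 2584 and 2813 CPM in NR GR-Con and NR GR-KO female, 1476 in DR GR-Con male, and 1194 and 1439 in the DR GR-KO pair, so the NR libraries still lay above the DR libraries. In NR GR-Con female 1 nucleus of 20 held 87 of the 139 neuron-list UMIs, and without it the level was 1058 CPM, below each of the others. Results on expression are therefore given for all SMC-Peri nuclei and for those below the gap.

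As a share of all nuclei, the class did not differ detectably between groups. It made up 0.0533% and 0.195% of the male and female NR GR-Con libraries, 0.115% and 0.305% in NR GR-KO, 0.350% and 0.00724% in DR GR-Con, and 0.167% and 0.224% in DR GR-KO. The highest and the lowest share belonged to the same group. GR-KO libraries held 0.203% ± 0.0812 (SD, n = 4) and GR-Con libraries 0.151% ± 0.155 (n = 4), with p = 0.6 in an exact two-sided permutation test over libraries. DR libraries held 0.187% ± 0.142 (n = 4) and NR libraries 0.167% ± 0.109 (n = 4), with p = 0.83 in the same exact test, whose smallest possible p is 0.0286.

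**Figure D3:**
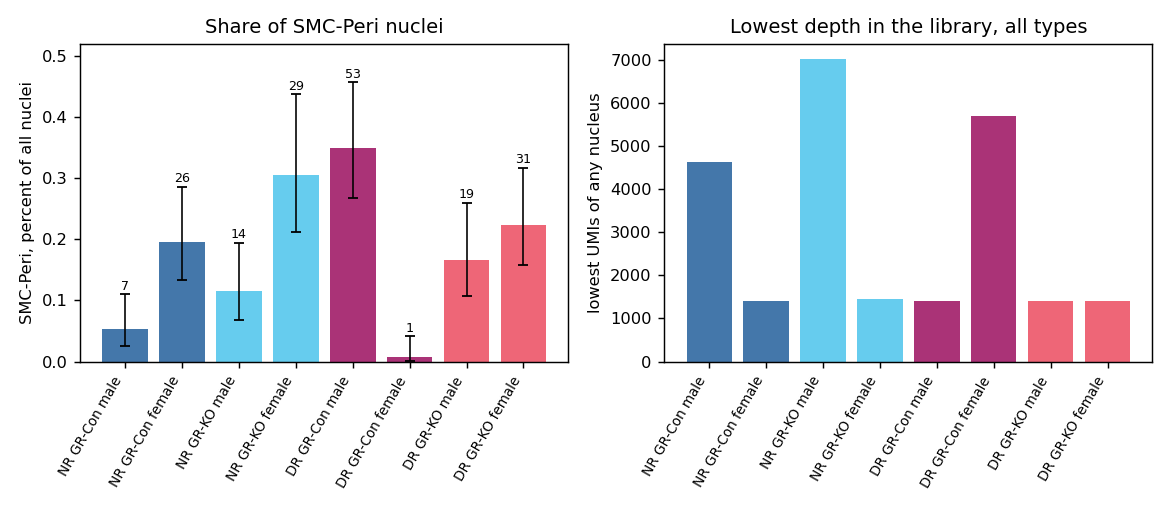
Left, SMC-Peri nuclei as a percent of all nuclei in each library, with 95% Wilson intervals for counting error and the number of nuclei above each bar. Right, the lowest UMI count of any nucleus of the library. The 3 libraries with a high minimum hold 7, 14 and 1 SMC-Peri nuclei, and the other 5 hold 19 to 53.

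A common depth limit, a comparison added after the depth differences were seen, gave another result for deep nuclei alone. Among nuclei with at least 7024 UMIs, the highest minimum of any library, 41 were SMC-Peri, of 180 in the class. The comparison thus leaves out most of the class. They numbered 7 and 6 in NR GR-Con and 14 and 5 in NR GR-KO, male library first. In DR GR-Con they numbered 5 and 1, and in DR GR-KO 0 and 3. Their share was 0.0597% and 0.0552% in NR GR-Con, 0.115% and 0.0587% in NR GR-KO, 0.0427% and 0.00760% in DR GR-Con, and 0% and 0.0281% in DR GR-KO, for male and female libraries in turn. The mean was 0.0527 points lower in DR than in NR, the libraries of the rearings did not overlap, and the exact permutation p was 0.0286, the smallest that 4 against 4 libraries can give. The 0% of DR GR-KO male rests on 0 nuclei of 8685. Most of these deep nuclei were rich in neuronal transcripts. Some in NR libraries were not, such as a nucleus of NR GR-Con male with 6 neuron-list and 188 astrocyte-list UMIs. The difference by genotype at this depth was 0.00926 points with an exact permutation p of 0.8.

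The balance of smooth muscle and pericyte transcripts was compared next, on lists in which *Cald1* gave 1357 of the 1801 smooth muscle UMIs. Smooth muscle UMIs made up 22.4% of smooth muscle plus pericyte UMIs in NR GR-Con female, 22.4% in the male and 26.5% in the female library of NR GR-KO, 24.5% in DR GR-Con male, and 21.3% and 26.2% in DR GR-KO male and female. The GR-KO libraries averaged 24.1% ± 2.62 (SD, n = 4) and the GR-Con libraries 23.4% ± 1.51 (n = 2), with an exact permutation p of 0.667 where 0.133 is the smallest possible. DR libraries averaged 24.0% ± 2.47 (n = 3) and NR libraries 23.7% ± 2.36 (n = 3), with an exact permutation p of 1 where 0.1 is the smallest possible. With the 6 smooth muscle and 8 pericyte marker genes the share was 3.51% in NR GR-Con female, 1.42% in the male and 2.45% in the female library of NR GR-KO, 2.48% in DR GR-Con male, and 0.465% and 3.89% in DR GR-KO male and female. These shares rest on 2 to 31 smooth muscle UMIs per library and spread more widely, and the lowest and the highest belonged to the same group.

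The vector and its target were checked before expression was compared. *Cre* UMIs stood at 4.14 to 10.4 CPM in astrocytes of the 4 GR-KO libraries and at 0 in those of the 4 GR-Con libraries. The ΔCre feature of the annotation did not separate the groups, at 2.68 to 6.96 CPM in GR-KO and 2.51 to 4.79 CPM in GR-Con astrocytes. *Nr3c1* in astrocytes stood at 231 and 221 CPM in NR GR-Con, 284 and 268 in NR GR-KO, 263 and 207 in DR GR-Con, and 274 and 275 in DR GR-KO. It was thus not lower in GR-KO, in nuclei that had been sorted as GFP-negative and with reads from the 3′ end of transcripts, which check nothing where the deleted part lies elsewhere. *Fkbp5* in the same astrocytes stood at 129 and 47.6, 21.9 and 4.92, 21.5 and 72.8, and 9.89 and 15.4 CPM in the same order. The study's methods give this vector a CAAX-tagged EGFP, not the nuclear membrane KASH tag used to sort astrocytes in its other assays. The study reports that many GR-dependent genes of its bulk astrocyte data recurred in the astrocytes of this assay. SMC-Peri nuclei held 0 UMIs of *EGFP* and of *Cre*, and 3 of ΔCre, of which 2 were in NR GR-KO male and 1 in DR GR-KO female.

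In SMC-Peri nuclei *Nr3c1* stood at 195 CPM in NR GR-Con female, 198 in the male and 223 in the female library of NR GR-KO, 349 in DR GR-Con male, and 274 and 177 in DR GR-KO male and female. The GR-KO libraries lay above the GR-Con library in NR and below it in DR, and no comparison called the gene (log2 difference 0.21 ± 0.61 in NR and -0.80 ± 0.60 in DR). *Fkbp5* stood at 121, 58.7 and 10.3, 47.4, and 78.3 and 69.4 CPM in the same order. Its log2 difference between GR-KO and GR-Con was -1.65 ± 0.85 (SE) in NR and 0.51 ± 0.95 in DR, both far from the threshold (adjusted p = 0.999 and 1.00 in edgeR's likelihood ratio test). Of the 23 GR target genes, 6 or 7 had enough counts for the test in each comparison and 0 passed it in any of the 7. The share called over all genes ran from 0% to 1.52% over these comparisons, so a count of 0 among so few genes is no result about them.

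Counts summed per library were tested with edgeR's likelihood ratio test, and genes were called at a Benjamini-Hochberg adjusted p under 0.05 over all genes tested. The sample titles number 2 replicates in each group without tying them to litters or days, so p-values measure only the spread between libraries. Each GR-Con arm was 1 library. Its own spread was not measured and was assumed to be that of the GR-KO libraries, which left 2 residual degrees of freedom, or 3 in the fits over both rearings or genotypes. The genotype contrast under NR called 3 of 5678 genes (0.0528%), all higher in GR-KO. For the same contrast in DR, 0 of 5678 were called (0%), with 200 at an unadjusted p under 0.05. Over both rearings, 0 of 4387 were called (0%), with 101 at an unadjusted p under 0.05. Some other settings, listed in the closing section, called genes in both of these contrasts. edgeR's quasi-likelihood F-test and DESeq2 called 0 genes in each of the 3 contrasts, with 108 and 23, 101 and 23, and 61 and 18 genes at an unadjusted p under 0.05.

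The 3 genes higher in GR-KO under NR are known from neurons. *Il1rapl2*, a synaptic adhesion gene of the IL-1 receptor family, stood at 20.2 CPM in NR GR-Con female and at 445 and 320 in NR GR-KO (log2 difference 4.31 ± 0.89, adjusted p = 0.00715, likelihood ratio test). *Ntng1*, an axonal adhesion gene, stood at 6.73 CPM against 148 and 199 (4.65 ± 0.99, adjusted p = 0.00715). *Zfp804a* stood at 0 against 83.4 and 210 CPM, which is at least 7.10-fold higher against the limit that 3 counts set in that library (adjusted p = 0.0189). With sex as a term the adjusted p of the likelihood ratio test was 0.0163 for *Zfp804a*, 0.0616 for *Ntng1* and 0.238 for *Il1rapl2*. All 3 were at 4 or more times the level in excitatory neurons that they had in shallow SMC-Peri nuclei, a definition of neuron-enriched genes made after the deep nuclei were seen, which 1629 genes met, 663 of the 5678 tested among them. None of the 3 had enough counts for a test below the gap. Deep nuclei supplied 63.8% of the SMC-Peri UMIs in the GR-Con library and 97.8% and 56.7% in the GR-KO libraries. The arms thus overlapped in this respect. Levels of the neuron marker list did not overlap. They were 10478 CPM for the GR-Con library, 15231 for the GR-KO male and 11475 for the GR-KO female. For the single neuron markers tested, the log2 difference by genotype in NR ran from -0.083 to 0.66. In NR GR-KO female 1 nucleus of 54348 UMIs held 63 of the 93 *Il1rapl2* UMIs, 53 of the 58 of *Ntng1* and 48 of the 61 of *Zfp804a*. Without the nucleus richest in the gene, *Ntng1* stood at 21.1 CPM there and at 51.9 in NR GR-KO male. The part of the deep nuclei in this result was not tested.

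Mural genes were then compared by genotype. In NR, 0 of 13 mural, 0 of 12 pericyte and 0 of 3 smooth muscle genes tested were called, where 0.0528% of all genes were. Their median log2 differences were -0.45, -0.64 and -0.27 against 0.03 over all genes. *Rgs5* stood at 525 CPM in NR GR-Con female and at 185 and 547 in NR GR-KO (-0.45 ± 0.80), and *Abcc9* at 504 against 192 and 423 (-0.64 ± 0.79). The GR-KO male library, whose UMIs were nearly all from deep nuclei, was the low one for both. In DR, 0 of 13, 0 of 12 and 0 of 3 were called, as were 0% of all genes, with medians of 0.13, -0.06 and -0.03 against -0.0044 over all genes.

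Darkness was compared next. For DR against NR in GR-Con, with 1 library in each arm, 0 of 5678 genes passed (0%), and 162 had an unadjusted p under 0.05. The quasi-likelihood F-test and DESeq2 gave 0 as well, with 82 and 15 such genes. In GR-KO, with 2 libraries in each arm, 62 of 4078 genes were called (1.52%), of which 13 had higher and 49 lower values in DR. With sex as a term 2 were called, and leaving out 1 library gave 4 calls (without DR GR-KO male) to 270 (without DR GR-KO female). Over both genotypes 19 of 4387 were called (0.433%), 7 higher and 12 lower. With sex as a term 42 were called, and leaving out 1 library gave 4 calls (without DR GR-KO female) to 55 (without NR GR-Con female). The quasi-likelihood F-test and DESeq2 called 0 genes in both of these contrasts, with 363 and 178 genes, and 349 and 236 genes, at an unadjusted p under 0.05. The contrasts in GR-KO and over both genotypes share the GR-KO libraries.

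Neuronal genes were frequent among those lower in DR. In GR-KO, 36 of the 49 were neuron-enriched and none of the 13 higher ones was, where 549 of the 4078 genes tested were neuron-enriched. Of the 140 nuclei below the gap whose low level defined these genes, 95 were from DR libraries, so the definition is not independent of rearing. Of the 9 neuron markers, fixed without that definition, 0 of 7 tested were called, with 0 positive and a median of -1.40. *Il1rapl2* stood at 445 and 320 CPM in NR GR-KO and at 19.6 and 0 in DR GR-KO, and *Epha3*, an ephrin receptor, at 148 and 48.1 against 0 and 7.71. *Kcnv1*, a silent potassium channel subunit, stood at 61.8 and 58.4 against 0 and 0 CPM, at least 3.63-fold lower against the limit of 3 counts over both libraries. *Nkain3* and the kainate receptor *Grik1* completed the 5 named by size of change, with log2 differences of -3.85 ± 1.01 and -3.72 ± 1.04 (adjusted p = 0.0216 and 0.0334, likelihood ratio test). The neuron marker list in the same libraries stood at 15231 and 11475 CPM in NR GR-KO and at 1194 and 8284 in DR GR-KO. Its part in these calls was not tested. With sex as a term *Il1rapl2* passed (adjusted p = 0.000174, likelihood ratio test), and the other 4 named genes had adjusted p of 0.0568 to 0.106.

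Of the 13 genes higher in DR in GR-KO, *Itih5*, which encodes a hyaluronan-associated matrix protein, had the lowest adjusted p (0.000207 in the likelihood ratio test), with a log2 difference of 2.54 ± 0.48 at a mean log2 CPM of 7.95. It was picked out after its values were seen, and it was not among the genes called below the gap. The 5 with the largest differences were of lower level. *Tmem45a*, a transmembrane protein gene, stood at 9.27 and 24.1 CPM in NR GR-KO and at 137 and 108 in DR GR-KO (log2 difference 2.60 ± 0.62, adjusted p = 0.00937, likelihood ratio test). *Klhl13*, a ubiquitin ligase adaptor, stood at 3.09 and 20.6 against 78.3 and 147, and *Ubash3b*, a phosphatase, at 15.5 and 0 against 78.3 and 92.6. The glycosyltransferase subunit *Alg14* stood at 9.27 and 13.8 against 117 and 84.8 CPM, and *Mob3b* at 6.18 and 17.2 against 97.9 and 84.8. None of the 5 passed once sex was a term, with adjusted p of 0.0568 to 0.109. Below the gap the log2 differences were 1.79 for *Tmem45a*, 2.28 for *Klhl13*, 1.94 for *Alg14* and 1.54 for *Mob3b*, while *Ubash3b* stood at 0 in NR GR-KO female against 78.3 and 163 CPM in DR GR-KO, and none passed the test there.

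Over both genotypes the same direction held for *Tmem45a* and *Mob3b* (2.19 ± 0.52 and 2.14 ± 0.56, adjusted p = 0.0155 and 0.0402, likelihood ratio test), as for *Tdrd3*, which was also called in GR-KO, and *Lamb1* and *Bmp2k* were called as well. *Lamb1*, the beta chain of basement membrane laminin, stood at 20.2 CPM in NR GR-Con female and 12.4 and 24.1 in NR GR-KO, against 73.2 in DR GR-Con male and 97.9 and 77.1 in DR GR-KO (1.93 ± 0.51, adjusted p = 0.0460). It was the 1 basement membrane gene called of 10 tested, where 0.433% of all genes were, with all 10 positive and a median of 0.85, as for the 13 mural genes. Below the gap 0 of 8 basement membrane genes were called, with a median of 0.04, and *Lamb1* had too few counts for a test. *Tdrd3* stood at 47.1, 34.0 and 30.9 CPM in the NR libraries and at 129, 137 and 162 in the DR libraries (adjusted p = 0.00684). The genes lower in DR by the largest amounts were *Lhfpl3*, *Sox2ot*, *Cux2*, *Ptchd4* and *Cpne8*, at -4.25, -4.09, -2.60, -2.47 and -2.47. *Cux2*, a transcription factor of upper layer neurons, stood at 175, 219 and 138 CPM in the NR libraries and at 30.2, 19.6 and 38.6 in the DR libraries, and 10 of the 12 lower genes were neuron-enriched, as were 575 of the 4387 tested. *Lamb1*, *Tdrd3* and *Cux2* passed with sex as a term (adjusted p = 0.0300, 0.00311 and 9.07e-05, likelihood ratio test). In NR GR-Con female 22 of the 26 *Cux2* UMIs were in 1 nucleus, and 43 of the 56 *Lhfpl3* UMIs as well as all 21 of *Sox2ot* were in another, while no nucleus held more than 3 *Lamb1* UMIs in any library. *Cux2* passed whichever library was left out, *Tdrd3* did not pass without DR GR-KO female, and *Lamb1* passed only without NR GR-KO female.

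Mural genes had higher values in DR without passing the test. In GR-KO, 12 of 12 mural, 10 of 10 pericyte and 3 of 3 smooth muscle genes tested had a positive difference and 0 were called, where 1.52% of all genes were, with medians of 1.07, 0.98 and 1.18 against -0.04 over all genes. *Rgs5* stood at 185 and 547 CPM in NR GR-KO and at 959 and 879 in DR GR-KO (1.13 ± 0.69, adjusted p = 0.497, likelihood ratio test), *Pdgfrb* at 250 and 639 against 1487 and 717 (1.08 ± 0.72, adjusted p = 0.543), and *Abcc9* at 192 and 423 against 1605 and 764 (1.71 ± 0.70, adjusted p = 0.234). These values share library totals, of which deep nuclei gave 97.8% in NR GR-KO male and 0% in DR GR-KO male. The part of the deep nuclei in them was not tested. Over both genotypes the medians were 0.85, 0.69 and 1.00 against -0.01, with 0 of 13, 0 of 10 and 0 of 3 called.

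**Figure D4:**
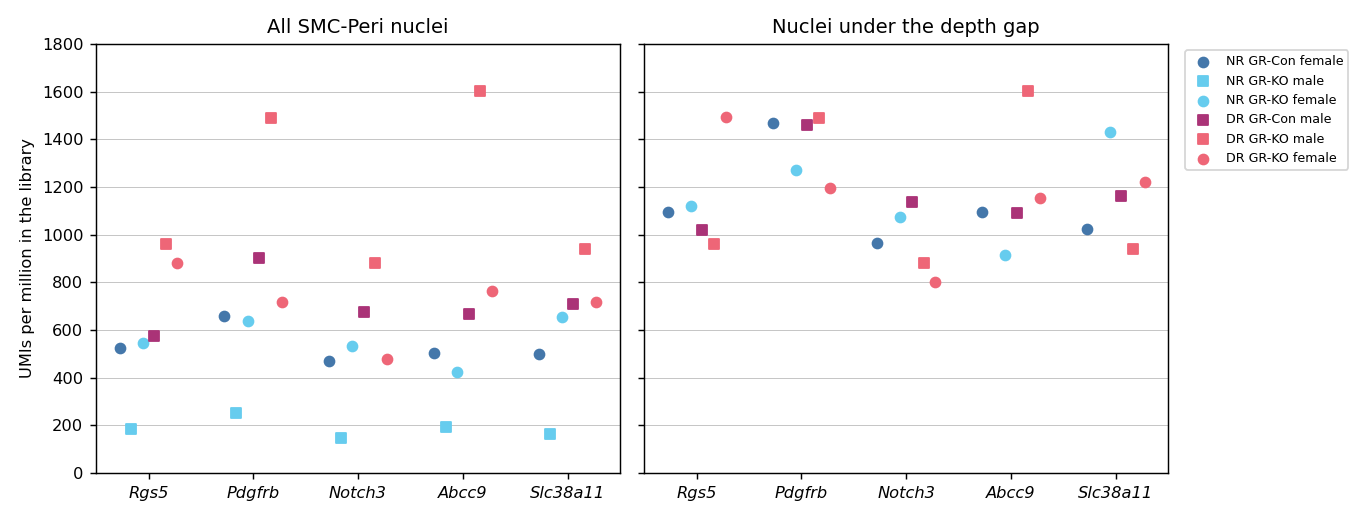
CPM of 5 mural genes in each library, from all SMC-Peri nuclei (left, 6 libraries) and from nuclei below the depth gap (right, 5 libraries), with squares for males and circles for females. On the left NR GR-KO male is lowest for each gene, at 145 to 250 CPM, and on the right, where that library has too few nuclei, the NR and DR libraries overlap for all 5.

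Below the depth gap the medians lay near 0. The same medians in GR-KO were -0.01 for mural, 0.10 for pericyte and -0.06 for smooth muscle genes, against 0.01 over all genes, with NR GR-KO then represented by its female library. The nuclei of that library below the gap held 3394 to 6875 UMIs each, while the shallowest nuclei of the other libraries compared held 1438 to 1923. Depth was thus not matched below the gap for rearing in GR-KO or for genotype in NR. *Rgs5* stood at 1097 and 1121 CPM in the NR GR-Con and NR GR-KO female libraries, 1021 in DR GR-Con male, and 959 and 1493 in DR GR-KO male and female. *Pdgfrb* stood at 1468, 1272, 1460, 1487 and 1195 CPM in the same order. *Notch3* stood at 967, 1073, 1138, 881 and 801. For each of these 3 genes both NR libraries lay inside the range of the DR libraries.

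Other genes of the class varied to different degrees below the gap. *Atp13a5* stood at 6264, 5524, 6328, 5871 and 5159 CPM and *Ebf1* at 3736, 3378, 3839, 3444 and 3706 in the same order, against 899 to 5871 and 392 to 3444 over the 6 libraries with all nuclei. *Abcc9* stood at 1097, 914, 1091, 1605 and 1154 CPM. *Nr3c1* stood at 279, 254, 298, 274 and 204 CPM, and both NR libraries lay inside the range of the DR libraries, as they did for *Atp13a5*. For *Ebf1* and *Abcc9* the NR GR-KO library lay below the DR libraries. Among the 15 leading genes, *Myh11* stood at 74.4, 111, 181, 19.6 and 258 CPM and *Rem1* at 242, 151, 157, 196 and 81.5. *Cysltr2* stood at 149, 135, 173, 176 and 339 CPM, *Tbx2* at 279, 318, 275, 176 and 217, and *Art3* at 502, 429, 322, 254 and 285. None of these 3, picked out after their values were seen, was among the genes called below the gap.

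**Figure D5:**
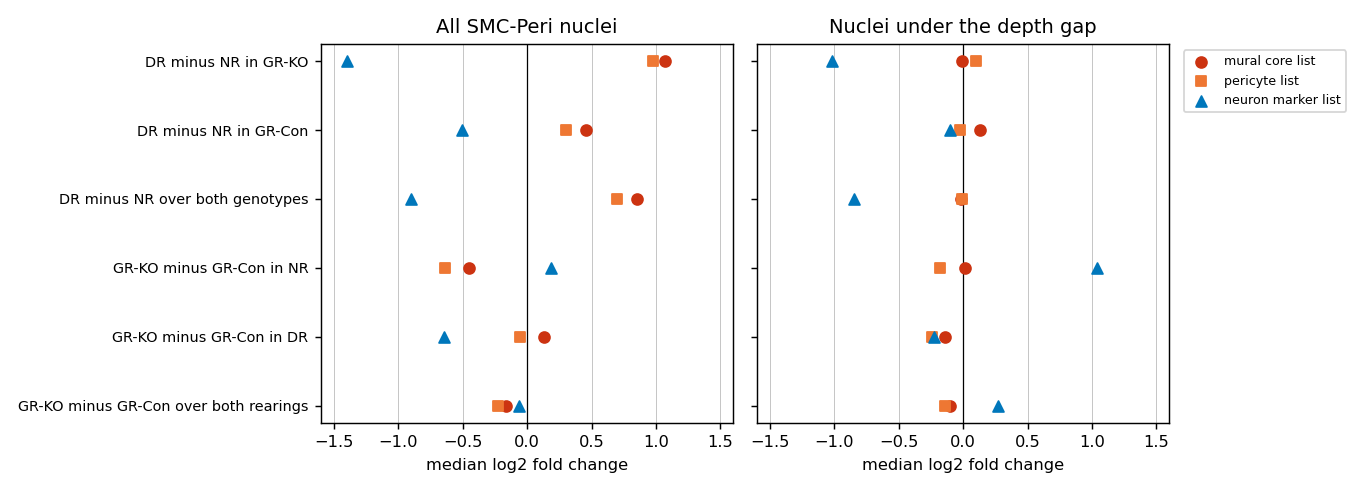
Median log2 difference of mural genes, pericyte genes and neuron markers in 6 comparisons, from all SMC-Peri nuclei (left) and from nuclei below the depth gap (right). On the left the mural and neuron marker medians lie on opposite sides of 0 for DR minus NR in GR-KO, at 1.07 and -1.40, and on the right they lie at -0.01 and -1.02.

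Few genes were called below the gap, and none of the mural, pericyte or smooth muscle lists. There only DR GR-KO kept more than 1 library, so the spread within a group was measured in that pair alone. These calls describe the libraries and do not support a difference between conditions. The calls were 1 of 2353 genes for genotype in NR (0.0425%), 4 of 2353 for genotype in DR (0.17%), 6 of 2353 for rearing in GR-Con (0.255%), 3 of 2353 for rearing in GR-KO (0.127%), 3 of 1715 for genotype over both rearings (0.175%) and 12 of 1715 for rearing over both genotypes (0.7%). With these calls, 1 gene for rearing over both genotypes was also called with all nuclei, and 0 in the other comparisons. *Xist*, the X-inactivation RNA that females express, was 1 of the 4 for genotype in DR and 1 of the 6 for rearing in GR-Con. Below the gap both NR libraries were female and 2 of the 3 DR libraries male, and *Uty*, a Y-linked gene, was 1 of the 12 for rearing over both genotypes, at 228 and 235 CPM in the male libraries and 0 in the female ones.

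Other calls below the gap, named here after their values were seen, included neuronal and astrocytic genes, and single nuclei held most of the UMIs of several of them. Those are given as values of these libraries and not as a change of the class. *Gpc5*, a glypican of astrocytes, and *Ctnnd2*, a neuronal catenin, were called for genotype in DR, for genotype over both rearings and for rearing in GR-KO, and *Ctnnd2* also for rearing over both genotypes. *Slc1a3*, the astrocyte glutamate transporter, was higher in DR in GR-KO and over both genotypes (3.41 ± 0.78 and 2.85 ± 0.59). Lower in DR over both genotypes were the synaptic vesicle gene *Syt1* (-1.59 ± 0.34), *Nkain2* (-2.15 ± 0.44), the NMDA receptor subunit *Grin2a* (-1.44 ± 0.38) and *Cnksr2* (-1.71 ± 0.39). *Syt1* (-2.22 ± 0.50), *Nkain2* (-2.86 ± 0.59) and *Nav3* (-2.65 ± 0.56) were lower in DR within GR-Con. *Egfem1* was higher in GR-KO in DR, and *Zfp804b* was lower in GR-KO in NR (-3.66 ± 0.68). *Gpc5* stood below the gap at 0 CPM in NR GR-Con female, 95.4 in NR GR-KO female, 15.7 in DR GR-Con male, and 196 and 1073 in DR GR-KO male and female. All 79 *Gpc5* UMIs, 20 of the 23 of *Slc1a3* and 26 of the 33 of *Ctnnd2* in this last library were in 1 nucleus of 28, which also held 166 of the 186 astrocyte-list UMIs. In DR GR-KO male 1 nucleus of 19 held 9 of the 10 *Gpc5* UMIs, and another held 33 of the 35 of *Egfem1*. In NR GR-Con female the nucleus of 4644 UMIs that was rich in neuron markers held 77 of the 90 *Syt1* UMIs, 54 of the 58 of *Nkain2*, 54 of the 66 of *Nav3*, 15 of the 26 of *Grin2a*, 19 of the 23 of *Cnksr2* and all 40 of *Zfp804b*. Without it *Syt1* stood at 264 CPM in that library, below the 352 to 434 CPM of the DR libraries, and *Nkain2* at 81.4, within their 78.3 to 149. NR GR-KO female, at 755 CPM of *Syt1* and 262 of *Nkain2* with no nucleus above 8 UMIs of either, lay above the DR libraries for both. The transcription factor gene *Sox6* was higher in DR over both genotypes (2.34 ± 0.53), at 37.2 and 39.7 CPM in the NR libraries and 243, 235 and 176 in the DR libraries, and 7 of the 13 UMIs of the last library were in the nucleus rich in astrocyte markers, without which it stood at 89.2 CPM. *R3hdm1* was lower (-1.50 ± 0.36), at 1134 and 572 against 259, 352 and 285 CPM, and at 631 in NR GR-Con female without the nucleus of 4644 UMIs. *Thsd4* stood at 0 and 7.95 against 181, 0 and 285 CPM, and the remaining calls for rearing over both genotypes were *Gm42418* and *Gm47283*, with differences of -0.57 ± 0.13 and -1.73 ± 0.45.

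The difference between the genotype effects in NR and in DR was fitted as an interaction term, with 1 GR-Con library of opposite sex in each rearing. Since the spread of those arms was not measured, the calls describe these libraries and do not support a difference between the conditions. 8 of 5678 genes were called (0.141%), 7 of them with a larger GR-KO excess in NR, and below the gap 2 of 2353 (0.085%), *Xist* and *Nhs*. With all nuclei 6 of the 8 were neuron-enriched, as were 663 of the 5678 tested, and *Gpc5* was the 1 gene with the opposite sign. *Gpc5* stood at 868 CPM in NR GR-Con female and 504 and 210 in NR GR-KO, but at 8.62 in DR GR-Con male and 196 and 918 in DR GR-KO. In NR GR-Con female 1 nucleus held 106 of its 129 UMIs and a second the other 23, and in DR GR-KO female 2 nuclei held all 119. Without the richest nucleus of each, these libraries stood at 171 and 325 CPM. The DR GR-Con arm was the 1 male library, and the NR GR-Con arm the 1 female library. Below the gap the difference of *Gpc5* was 0.88 and did not pass the test. 0 of 13 mural and 0 of 12 pericyte genes were called, and the quasi-likelihood F-test and DESeq2 called 0 genes, with 129 and 34 at an unadjusted p under 0.05.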

How the data were processed

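Nuclei from V1 of 8 libraries in 4 groups were profiled with a 3′ droplet assay. The authors deposited UMI counts per gene and nucleus together with a cell table that gives the library, the cell type and the percent of mitochondrial counts. The submitters' processing notes name Cell Ranger 8.0.1, Seurat 5.3.0 and the mm10 build. Per the study's methods, nuclei with too few or too many counts and doublets predicted by DoubletFinder were removed before deposit, and cell types came from Louvain clusters and marker genes.

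Counts of SMC-Peri nuclei were summed per library, and CPM were taken from these sums. Libraries with 10 or more such nuclei (51097 to 323619 UMIs) entered edgeR 4.0.16 (R 4.3.3) with TMM scaling and a filter on low counts. Standard errors were derived from the likelihood ratio statistic, and adjusted p-values follow Benjamini-Hochberg over all genes tested. DESeq2 1.42.0 and the quasi-likelihood F-test were alternatives. For named genes, the UMIs of the nucleus richest in each were also counted, a step added after the values were seen. Shares were compared with exact permutation tests in scipy 1.17.1. The model script was tested on simulated data. Genes were named as the 5 largest called changes in each direction with a mean log2 CPM of at least 5 and libraries of the arms that did not overlap, besides *Nr3c1*, *Fkbp5* and the 4 class markers. For identity, the 15 largest ratios among genes of at least 50 CPM were named. Members, gene lists and tests were chosen with earlier results of these data known. Intervals and floors cover counting error only. Some genes are not reported here.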

Additional observations from a re-analysis of the deposited data

Results flagged for a closer look

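The interaction term of edgeR's likelihood ratio test, the genotype difference in NR against that in DR, passed for 8 genes in SMC-Peri nuclei. The spread came from the GR-KO libraries alone, with 2 residual degrees of freedom, so these calls describe the libraries and do not support a difference between conditions. The log2 difference of differences was 10.39 for *Zfp804a*, 8.92 for *Il1rapl2*, 7.11 for *Kcnab1*, 6.58 for *Ntng1*, 6.43 for *Plcxd3* and -7.04 for *Gpc5*. The value of *Zfp804a*, which had 0 UMIs in NR GR-Con female, depends on the prior count and is no measured fold. *Plcxd3* and *Gpc5* did not pass once sex was a term (adjusted p = 0.186 and 0.950, likelihood ratio test). *Kcnab1*, a potassium channel subunit, stood at 6.73 CPM in NR GR-Con female and 58.7 and 134 in NR GR-KO, against 108 in DR GR-Con male and 0 and 15.4 in DR GR-KO. Of the 129 *Gpc5* UMIs in NR GR-Con female 106 were in 1 nucleus, and of the 58 *Ntng1* UMIs in NR GR-KO female 53 were. The GR-Con arms were 1 library each, of different sex, so rearing and sex cannot be told apart in them. A library far from the others was looked for in 10 sets of 4 values, and 0 were found. These were the share of nuclei in GR-KO, GR-Con, NR and DR libraries, and the smooth muscle share and 5 gene levels in the GR-KO libraries alone.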

How the results depend on the processing

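No paired analysis was possible because the replicate numbers of the sample titles could not be tied to the library names, which carry none. Sex, which the names give, was used as a term, which left fewer residual degrees of freedom. Where an arm was 1 library, the sex effect in that fit came from the GR-KO libraries alone. The quasi-likelihood F-test and DESeq2 called 0 genes for genotype in NR, for rearing in GR-KO, for rearing over both genotypes and for the interaction. With sex as a term the calls were 2 for genotype in DR, 6 for rearing in GR-Con, 2 for rearing in GR-KO, 4 for genotype over both rearings and 42 for rearing over both genotypes. Without the filter on low counts they were 13 for rearing in GR-KO and 8 for rearing over both genotypes. With libraries of 20 or more nuclei they were 16 for genotype over both rearings, and with all libraries 2 for the interaction. Leaving out nuclei above the depth gap, an alternative chosen after seeing the data, gave 1, 4, 6, 3, 3, 12 and 2 calls for genotype in NR, genotype in DR, rearing in GR-Con, rearing in GR-KO, genotype and rearing over both, and the interaction. The quasi-likelihood F-test on those nuclei gave 1, 4, 7, 12, 0, 1 and 2. Leaving out 1 library gave 3 to 13, 0 to 17, 3 to 8, 4 to 270, 0 to 7, 4 to 55 and 10 to 29 calls in the same order. For rearing in GR-KO the 4 calls came without DR GR-KO male and the 270 without DR GR-KO female, and for genotype in DR the 17 came without DR GR-KO female. The cause was not tested.

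The number of genes highest in SMC-Peri nuclei was 127 without nuclei under the median depth and 1023 without those above the gap. The share difference by genotype turned to -0.0408 without the libraries of high minimum depth and ranged from 0.00325 to 0.117 with 1 library left out. That by rearing was -0.0734 of non-neuronal and -1.42 of vascular nuclei, -0.0527 at the common depth limit and -0.00337 without the libraries of high minimum depth, and ranged from -0.0347 to 0.0795 with 1 library left out. The smooth muscle share by genotype was -0.941 with shorter lists and -1.33 as percent of nuclei, ranging from -0.407 to 1.73. That by rearing was -0.183 with shorter lists and -0.140 in nuclei thinned to 1500 UMIs, ranging from -0.819 to 1.64.

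Of 776 values of named genes under alternatives, 549 kept direction and side of the threshold, 172 were weaker and 55 reversed, among called genes only *Gpc5* in the interaction, at 0.88 below the gap in both tests. The other reversed values were of uncalled genes. A value could count as weaker only where the main fit called the gene, as for 29 of the 64 pairs of gene and comparison. The 549 thus include uncalled genes that stayed uncalled. For genotype in NR, all libraries gave *Rgs5* 0.25, *Pdgfrb* 0.037 and *Abcc9* 0.13, and nuclei below the gap *Nr3c1* -0.086 and *Rgs5* 0.077. For genotype in DR, *Pdgfrb* was -0.022 without the filter and -0.17 below the gap. For rearing in GR-Con below the gap *Rgs5* was -0.12, *Pdgfrb* -0.026 and *Abcc9* -0.025, and for rearing in GR-KO *Pdgfrb* -0.035. For genotype over both rearings, *Abcc9* was -0.054 without the filter and -0.013 in libraries of 20 or more nuclei, and *Pdgfrb* 0.53 with all libraries. For rearing over both genotypes, *Fkbp5* was -0.10 in the quasi-likelihood test, -0.016 with RLE, -0.068 without the filter and -0.073 with all libraries, and below the gap *Nr3c1* was -0.11, *Rgs5* -0.037 and *Pdgfrb* -0.046, with -0.036 and -0.045 in the quasi-likelihood test. In the interaction below the gap *Pdgfrb* was 0.0092. With 1 library left out, *Rgs5* ranged from -1.34 to 0.11 and *Pdgfrb* from -1.24 to 0.0048 for genotype in NR, *Pdgfrb* from -0.34 to 0.51 for genotype in DR and *Nr3c1* from -0.40 to 0.020 for rearing in GR-KO. For genotype over both rearings *Nr3c1* ranged from -0.78 to 0.21, *Fkbp5* from -1.65 to 0.53, *Rgs5* from -0.44 to 0.57, *Pdgfrb* from -0.49 to 0.15 and *Abcc9* from -0.63 to 0.68, and for rearing over both *Nr3c1* from -0.21 to 0.43 and *Fkbp5* from -0.61 to 0.79. The fit with 20 or more nuclei could be made only for the comparisons over both rearings or genotypes, and an arm of 1 library could not be left out of its own comparison.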
